A study of Macaca mulatta with 45 samples.

Results

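Integrins, laminins and the adhesive proteins they bind were followed in the rhesus macaque brain after irradiation. The members are the 44 genes, of 30246 gene IDs in the count table, whose macaque symbol is that of an integrin subunit, a laminin chain, fibronectin (FN1), a nidogen, a thrombospondin, an intercellular adhesion molecule (ICAM), VCAM1 or vitronectin (VTN). Of all IDs, 15769 had a symbol, and members were chosen by symbol alone. Total RNA was sequenced from the hippocampus, the dorsolateral prefrontal cortex (Brodmann area 46) and the centrum semiovale, a block of deep white matter, of 15 animals, 1 library per animal and region. Control animals (n = 5) were not unirradiated: they had received 10 Gy to the thorax, with a labelled dose to the brain of 0.1 Gy. Fractionated whole-brain irradiation (fWBI, n = 5) was 40 Gy in 8 fractions of 5 Gy, given 12 months before necropsy. Total body irradiation (TBI, n = 5) was a single dose of 6.75, 7.2 or 8.05 Gy, given 6 to 9 years before necropsy. Dose, schedule, body field and time since exposure all differ between fWBI and TBI and cannot be told apart, and no label gives the animals' ages. All animals were perfused with saline at necropsy.

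Integrins are receptors made of an alpha and a beta chain that join the cytoskeleton to the matrix or to another cell. Those with the ITGB2 chain are carried by leukocytes and microglia and bind ICAMs, complement fragments and fibrinogen. ITGA4 pairs with ITGB1 or ITGB7 and binds VCAM1, fibronectin and the mucosal addressin of endothelium, a pathway by which leukocytes enter the brain. Laminins are trimers of an alpha, a beta and a gamma chain, and nidogens link the laminin network to collagen IV in the basement membrane. In the brain that sheet surrounds every vessel and lies under the astrocyte endfeet and the meninges.

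Levels are given as CPM, counts relative to the scaled library total, with scaling by TMM over all libraries, and every library is listed in the order of animal 1 to 5 of its group, an order with no meaning of its own. CPM is not corrected for gene length, so levels are compared between libraries and not between genes. Differences are log2 fold changes ± standard error (SE) with n = 5 animals per group. Each adjusted p comes from the quasi-likelihood test of edgeR, corrected by the Benjamini-Hochberg method over all genes tested, and a gene rose or fell where it was under 0.05.

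A library held 6625435 to 12541507 counts. The content of the samples differed in more than 1 respect. Choroid plexus and ependyma markers summed to 2.33 to 5.92 CPM in control white matter and 9.66 to 27.9 CPM after fWBI. In control hippocampus they summed to 1.88 to 141 CPM, and 6 myelin markers to 1220 to 5570 CPM. The part of these differences in the results was not tested. Neuronal content was the respect followed below. The mean level of 13 neuronal markers was 8.16 and 7.24 on the log2 CPM scale in control white matter libraries 1 and 3, against 4.32 to 4.82 in the other control white matter libraries, 3.83 to 5.00 in those of fWBI and 4.10 to 5.09 in those of TBI. Prefrontal and hippocampal libraries lay between 8.00 and 8.76. The main results on white matter are therefore also given without these 2 control libraries.

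Of the 44 members, 41 passed the filter on low counts in at least 1 comparison. The other 3 were the laminin chain LAMB3 with 0 counts in the 45 libraries, the epithelial integrin chain ITGB6 with 17 counts in all, and the erythroid adhesion molecule ICAM4 with 196. Among those that passed in some comparisons only were ITGA2B, ITGB3, ITGB7, ITGAL, ITGAX, LAMB4 and THBS4. A member that passes such a filter through the group in which it is high had to differ there, so the counts of tested members below describe the tested genes alone. In white matter this applies to ITGAX, through fWBI, and to ITGB3, mainly through TBI. Their calls involving these groups describe a level and are no separate support.

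In white matter 12 of 37 tested members rose after fWBI and none fell, where 16.7% of all genes tested changed in either direction. The median log2 difference of the tested members was 0.39, and that of all genes was -0.0333. Leukocyte integrin subunits made up the steepest part: 5 of 6 rose (ITGAX, ITGA4, ITGAL, ITGB2 and ITGB7), and their median was 1.92. FN1 and VCAM1 rose by 1.49 and 1.60, and smaller rises were seen in ITGA5, ITGA6, ITGB1, LAMB2 and LAMC1. Without control white matter libraries 1 and 3, 11 members rose and none fell, with 1674 genes called over the whole table. Of these members 9 were among the 12, while ITGB1, LAMB2 and LAMC1 were lost and ICAM1 and ITGA3 gained. The differences were then 1.62 for FN1, 1.64 for VCAM1, 7.50 for ITGAX, 1.93 for ITGAL and 1.68 for ITGB7 (adjusted p = 0.0429). In hippocampus 4 of 36 tested members rose and none fell, against 0.723% of all genes, and in prefrontal cortex 6 of 37 rose and none fell, against 1.15%. In those 2 regions no tested leukocyte integrin passed, while ITGAX and ITGAL were too sparse there to test. The members that rose in them were FN1, laminin chains, NID1, VCAM1, ITGB1 and its partner ITGA1.

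**Figure D1:**
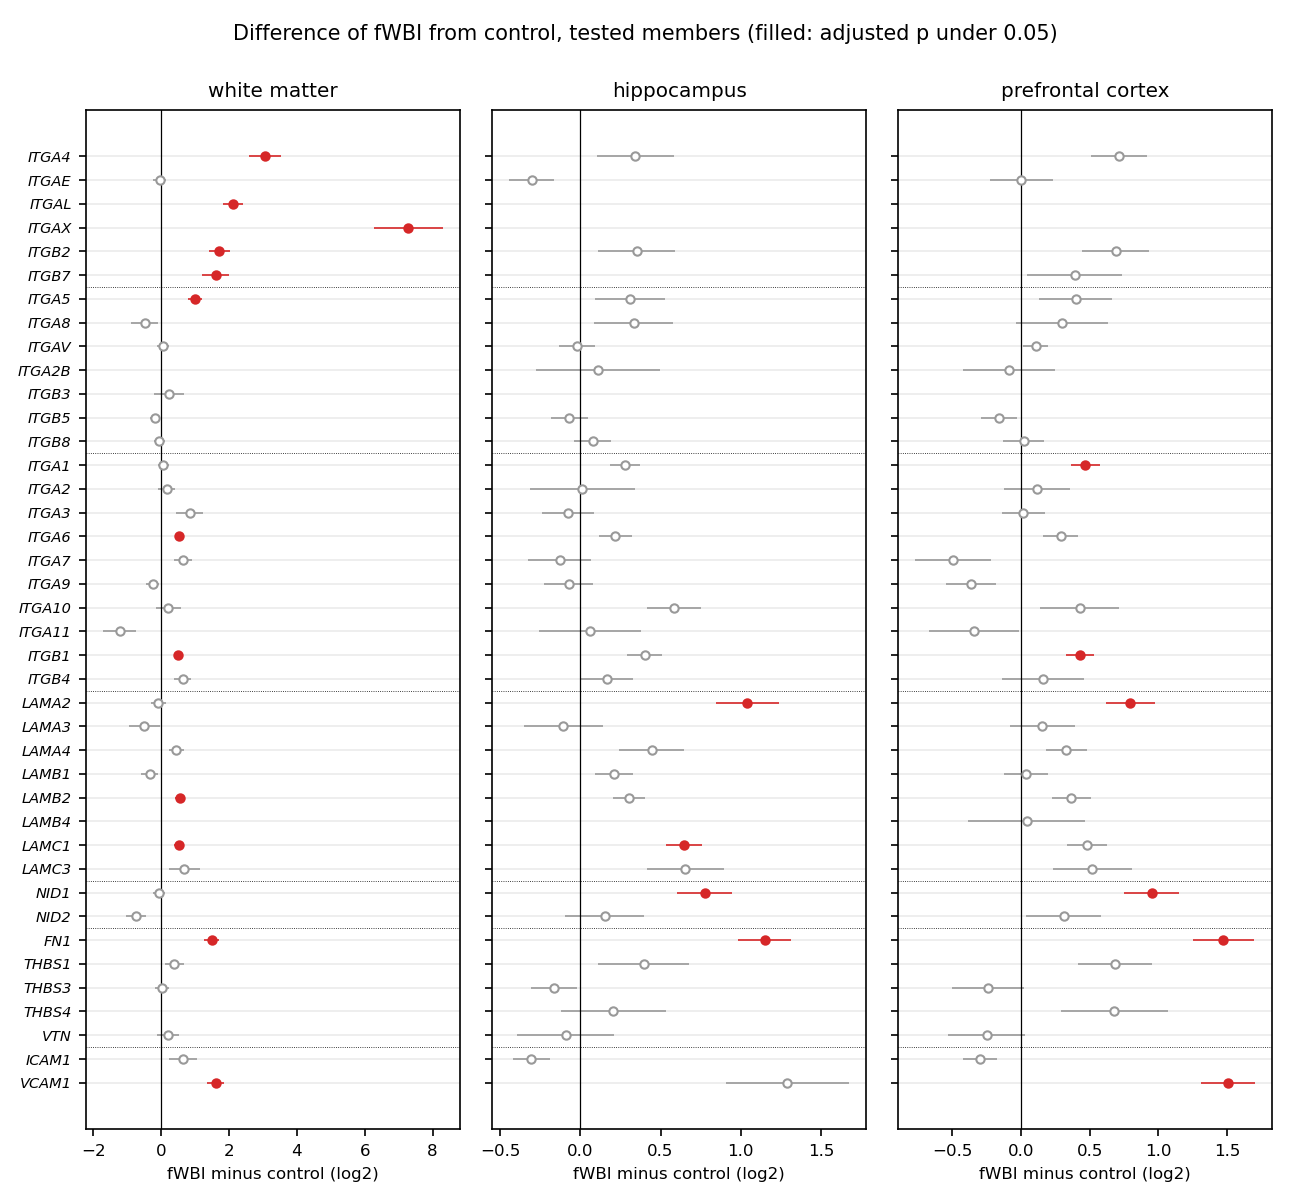
Log2 difference of fWBI from control (point) with its SE (bar) for the tested members in each of the 3 regions, with filled points for adjusted p under 0.05 and dotted lines between roles; the horizontal scales differ between panels. Filled points number 12, 4 and 6, all to the right of 0, and the leukocyte integrins at the top are filled in white matter only. ITGAX and ITGAL were not tested in hippocampus and prefrontal cortex and have no point there.

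Among the leukocyte integrins, ITGAX codes for the alpha chain of the complement receptor of dendritic cells and macrophages. In control white matter it gave 8 counts in all, at 0.342, 0.330, 0.101, 0 and 0.110 CPM. After fWBI its level was 24.3, 46.4, 14.8, 59.1 and 1.56 CPM, from 1485 counts. Every fWBI library lay above every control library, but animal 5 stood well below the other fWBI animals. The log2 difference was 7.29 ± 1.03 (adjusted p = 0.000187), a size that rests on very few control counts, and without fWBI animal 5 it was 7.60. The gene passed the filter in white matter through the fWBI libraries, so that p-value is descriptive. With no filter on low counts the edgeR adjusted p was 0.000842. In hippocampus and prefrontal cortex ITGAX and ITGAL were too sparse to test: after fWBI, ITGAX lay between 0.0807 and 2.36 CPM in hippocampus and between 0 and 1.12 CPM in prefrontal cortex. In log2 CPM, where 0 counts lie at -2.27, hippocampal ITGAX was at -2.27, -2.27, -1.72, -2.27 and -1.62 in controls. After fWBI it was at 1.36, -1.18, -0.87, -1.80 and -1.05. In prefrontal cortex it ran from -2.27 to -0.61 in controls and from -2.27 to 0.41 after fWBI. ITGAL ran from -0.83 to 0.15 against -0.37 to 1.15 in hippocampus, and from -1.31 to -0.11 against -0.27 to 0.91 in prefrontal cortex.

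ITGA4, the alpha chain that binds VCAM1 and fibronectin, was at 11.3, 0.991, 2.23, 2.85 and 4.50 CPM in control white matter and at 32.7, 47.2, 31.0, 46.8 and 19.6 CPM after fWBI. The groups did not overlap, and the highest control was neuron-rich library 1. The log2 difference was 3.05 ± 0.47 (adjusted p = 0.000379), and it was 3.71 without control libraries 1 and 3. In grey matter the gene was already higher in controls, at 12.7 to 18.2 CPM in prefrontal cortex and 15.8 to 37.0 CPM in hippocampus. After fWBI it was at 20.3 to 30.1 CPM in prefrontal cortex (0.71 ± 0.21, adjusted p = 0.115) and 21.2 to 43.3 CPM in hippocampus (0.34, adjusted p = 0.644), and neither passed the test.

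ITGAL and ITGB2 are the alpha and beta chains of the lymphocyte and myeloid receptor for ICAMs. In white matter ITGAL was at 1.48, 3.41, 1.42, 1.37 and 1.64 CPM in controls and at 7.26, 11.3, 6.52, 9.96 and 5.19 CPM after fWBI, a log2 difference of 2.13 ± 0.29 (adjusted p = 0.000144). ITGB2 was at 18.5, 49.97, 17.6, 34.9 and 46.7 CPM in controls and at 125.2, 134.0, 89.7, 129.8 and 61.5 CPM after fWBI (1.72 ± 0.32, adjusted p = 0.00161). For neither gene did the groups overlap. The controls lowest in ITGB2 were the neuron-rich libraries 1 and 3, and without them its difference was 1.34. ITGB7, a beta partner of ITGA4 and ITGAE, lay between 1.10 and 1.52 CPM in controls and between 2.11 and 6.17 CPM after fWBI (1.60 ± 0.40, adjusted p = 0.0111). ITGAE, the alpha chain of resident lymphocytes in epithelia, did not pass the test at -0.05.

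**Figure D2:**
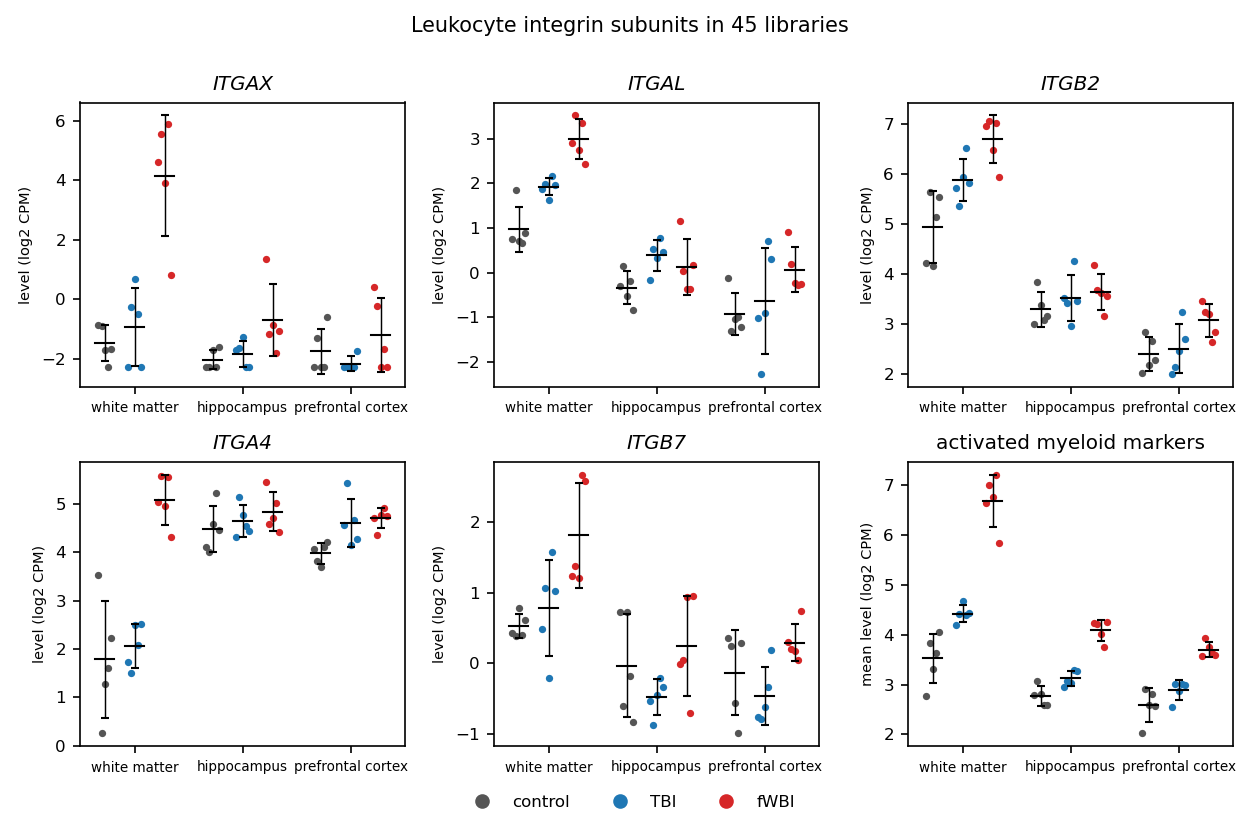
Level in log2 CPM of 5 leukocyte integrin subunits, and the mean level of 10 activated myeloid markers, in each of the 45 libraries, by region and treatment (points), with the group mean and SD (bars). The fWBI white matter libraries lie above the control white matter libraries in all 6 panels, and ITGAX in fWBI animal 5 lies far below the other 4.

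Of the cells that carry these integrins, activated myeloid cells had markers that rose with them in white matter. No homeostatic microglia marker and no T cell marker that could be tested rose, although the summed T cell marker level was higher after fWBI. Of 10 markers of activated myeloid cells and macrophages, 9 rose after fWBI, with a median of 3.31, where 16.7% of all genes changed in either direction. Their mean level was 2.78 to 4.05 in control and 5.83 to 7.20 (log2 CPM) in fWBI libraries, and their summed level was 96.7 to 237 CPM against 925 to 5000 CPM. The lowest of the fWBI values was that of animal 5, the animal lowest in ITGAX, ITGA4, ITGAL and ITGB2 but not in ITGB7. No marker of this list was at 0 in every library of a group. Of 5 homeostatic microglia markers none rose and 1 fell. Of 5 T cell markers only CD4 and CD8A could be tested, and neither passed the test. The T cell receptor gene CD3E gave 8 counts over the 5 control and 38 over the 5 fWBI libraries, and CD3G 2 and 13. The summed level of the 5 markers was 11.6 to 81.8 CPM in control and 95.9 to 144 CPM in fWBI white matter. In grey matter, where no tested leukocyte integrin passed, the mean level of the 10 activated myeloid markers was also higher after fWBI. It was 2.03 to 2.91 in control and 3.57 to 3.93 (log2 CPM) in fWBI prefrontal cortex, and 2.59 to 3.07 against 3.76 to 4.25 in hippocampus. That of the 5 homeostatic microglia markers was lower, at 4.38 to 4.69 against 3.55 to 3.65 and at 4.82 to 5.20 against 3.99 to 4.45. In bulk tissue more cells of a type and more RNA per cell cannot be told apart, and the part of these cell types in the integrin results was not tested.

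FN1, the plasma and matrix glycoprotein bound by ITGA5 and ITGA4 receptors, rose in each of the 3 regions. In white matter it was at 126.6, 163.7, 174.6, 113.1 and 92.3 CPM in controls and at 268.8, 499.7, 344.9, 353.1 and 374.4 CPM after fWBI, a log2 difference of 1.49 ± 0.23 (adjusted p = 0.000312). In hippocampus it was at 117.2, 74.8, 146.6, 111.6 and 87.9 CPM in controls and at 207.0, 267.0, 256.4, 217.3 and 251.6 CPM after fWBI (1.15 ± 0.17, adjusted p = 0.00258). In prefrontal cortex it was at 128.6, 113.0, 146.3, 75.2 and 128.9 CPM in controls and at 260.3, 358.2, 402.0, 294.3 and 351.8 CPM after fWBI (1.47 ± 0.22, adjusted p = 0.0031). In each region the lowest fWBI library was above the highest control. These 3 calls held under every alternative run.

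VCAM1 is the counter-receptor of ITGA4 on activated endothelium, and which cells carried it here was not tested. In white matter it was at 32.0, 17.6, 13.9, 25.7 and 22.4 CPM in controls and at 76.2, 85.7, 40.3, 54.3 and 74.4 CPM after fWBI (1.60 ± 0.25, adjusted p = 0.000409). In prefrontal cortex it was at 22.3, 14.4, 10.3, 17.3 and 10.5 CPM in controls and at 49.2, 41.4, 47.3, 31.9 and 44.2 CPM after fWBI (1.5 ± 0.20, adjusted p = 0.000915). In these 2 regions the groups did not overlap. In hippocampus the control libraries were at 27.4, 17.4, 8.69, 16.8 and 10.0 CPM and the fWBI libraries at 53.8, 37.8, 24.5, 23.6 and 56.6 CPM. There the groups overlapped, and a log2 difference of 1.29 ± 0.39 did not pass the test (adjusted p = 0.183).

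ICAM1, the counter-receptor of the ITGB2 integrins, followed another pattern. In control white matter it was at 37.9, 7.15, 22.9, 9.44 and 5.92 CPM, the high values being those of neuron-rich libraries 1 and 3, and after fWBI it was at 28.6, 26.4, 21.4, 35.7 and 15.4 CPM. With all controls it did not pass the test (0.64, adjusted p = 0.33). Without libraries 1 and 3 it rose by 1.80 (adjusted p = 0.000314), and the groups then did not overlap. In grey matter, where its control levels were 57.8 to 94.6 CPM in prefrontal cortex and 111.5 to 158.8 CPM in hippocampus, the differences were -0.30 and -0.31, and neither passed the test. Thrombospondins THBS1, THBS3 and THBS4 and vitronectin, the other soluble glycoproteins, passed it in no region.

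**Figure D3:**
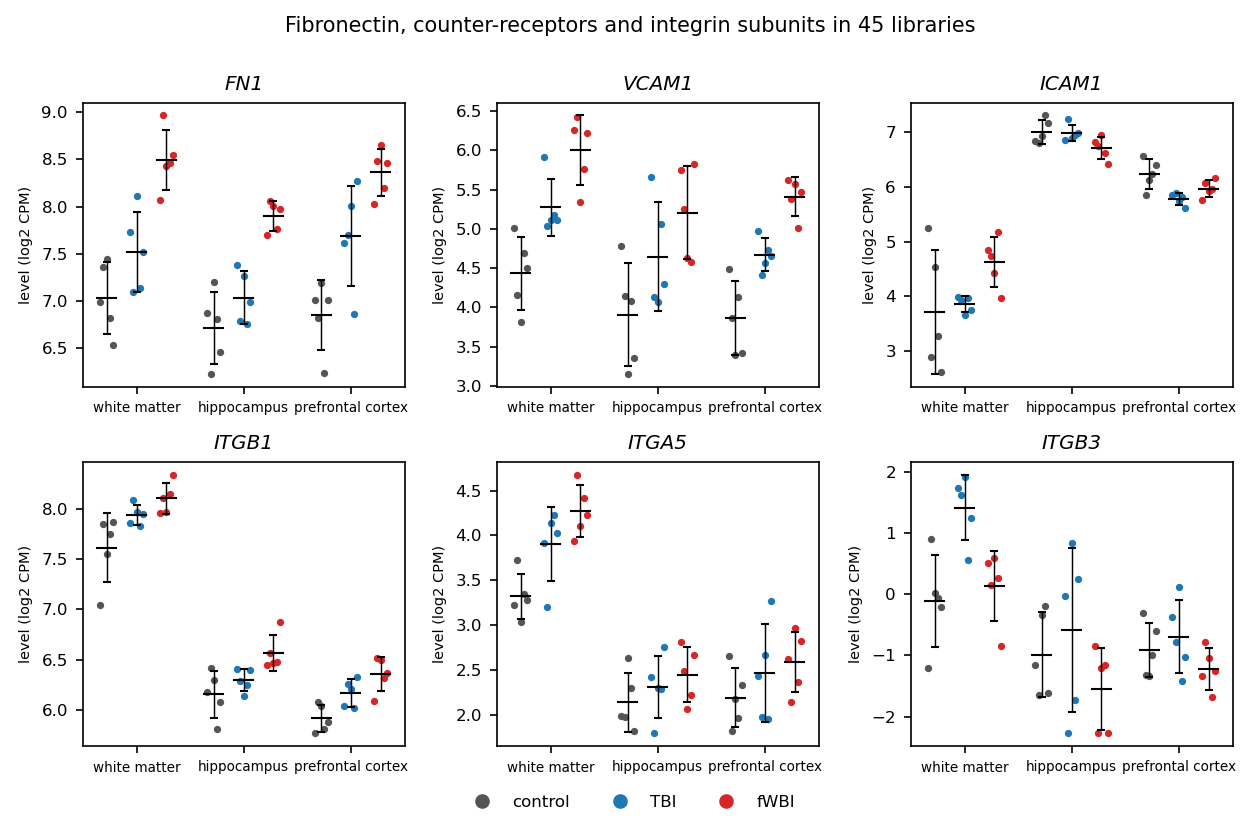
Level in log2 CPM of fibronectin, 2 counter-receptors and 3 integrin subunits in each of the 45 libraries by region and treatment (points), with the group mean and SD (bars). FN1 is higher after fWBI in all 3 regions, while ICAM1 is spread widely among the control white matter libraries, from 5.92 to 37.9 CPM.

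Among the receptors of matrix, ITGB1 is the beta chain shared by most laminin, collagen and fibronectin receptors. In white matter it was at 131.4, 230.9, 187.1, 215.8 and 234.1 CPM in controls and at 248.5, 276.4, 251.1, 283.2 and 324.0 CPM after fWBI (0.50 ± 0.14, adjusted p = 0.0206). The control lowest in ITGB1 was library 1, and without libraries 1 and 3 the difference was 0.32 and the call was lost (adjusted p = 0.0556). In prefrontal cortex it was at 54.3, 67.2, 65.5, 55.8 and 58.8 CPM in controls and at 68.0, 91.2, 90.3, 79.5 and 82.6 CPM after fWBI (0.43 ± 0.10, adjusted p = 0.0486), and in hippocampus at 72.0, 85.0, 78.2, 55.7 and 67.5 CPM against 87.0, 94.7, 88.1, 88.9 and 116.8 CPM (0.40 ± 0.11, adjusted p = 0.136). In all 3 regions the groups did not overlap, although the hippocampal difference did not pass the test.

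ITGA5, the alpha chain of the classical fibronectin receptor, rose in white matter from 8.00 to 13.0 CPM in controls to 15.2 to 25.4 CPM after fWBI (1.00 ± 0.20, adjusted p = 0.00292). ITGA6, an alpha chain of laminin receptors, rose from 93.6 to 139.3 CPM to 155.9 to 201.1 CPM (0.53 ± 0.12, adjusted p = 0.00715). Both calls held without control libraries 1 and 3, and ITGA3, another laminin receptor chain, was then also called. ITGA1, an alpha chain of collagen and laminin receptors, rose in prefrontal cortex by 0.47 ± 0.11 (adjusted p = 0.0432). The alpha v partners ITGAV, ITGB5 and ITGB8 did not pass the test in any region after fWBI, with differences from -0.20 to 0.11.

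Among the laminin chains and nidogens, LAMC1, the gamma chain of most vascular and glial laminins, was at 43.7, 38.2, 41.3, 38.1 and 38.2 CPM in control hippocampus and at 56.1, 64.8, 76.9, 49.1 and 66.6 CPM after fWBI (0.65 ± 0.11, adjusted p = 0.01). In white matter it was at 37.3, 40.8, 39.8, 30.7 and 31.5 CPM in controls and at 38.3, 51.9, 40.7, 52.9 and 69.2 CPM after fWBI (0.52 ± 0.16, adjusted p = 0.0318). The hippocampal groups did not overlap and the white matter groups did. In prefrontal cortex the levels were 31.3 to 45.0 CPM against 43.2 to 67.9 CPM (0.48, adjusted p = 0.132). LAMB2, a beta chain of vascular laminins, rose in white matter by 0.54 ± 0.14 (adjusted p = 0.0138). Without control libraries 1 and 3 the white matter calls of LAMC1 (adjusted p = 0.0551) and LAMB2 (adjusted p = 0.0896) were lost.

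LAMA2, the alpha chain of the laminin made by astrocytes, vascular cells and fibroblasts, rose in grey matter. In hippocampus it was at 31.4, 25.9, 23.0, 33.3 and 25.1 CPM in controls and at 45.8, 69.4, 60.5, 33.0 and 77.2 CPM after fWBI (1.04 ± 0.20, adjusted p = 0.0177). In prefrontal cortex it was at 39.5, 36.2, 33.9, 35.2 and 33.8 CPM in controls and at 58.0, 68.0, 63.6, 44.7 and 79.6 CPM after fWBI (0.80 ± 0.18, adjusted p = 0.041). In both regions fWBI animal 4 was the lowest of its group, and in hippocampus it fell below the highest control. In white matter LAMA2 was at 32.1, 37.8, 30.8, 30.2 and 22.5 CPM in controls and at 27.5, 21.7, 24.5, 23.7 and 44.2 CPM after fWBI, and the difference of -0.09 did not pass the test.

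NID1, the nidogen of most basement membranes, was at 23.5, 15.1, 25.9, 29.4 and 20.6 CPM in control hippocampus and at 36.8, 42.1, 41.9, 29.7 and 46.1 CPM after fWBI (0.77 ± 0.17, adjusted p = 0.0453). In prefrontal cortex it was at 24.6, 18.3, 24.8, 15.7 and 23.9 CPM in controls and at 35.5, 42.8, 38.5, 35.4 and 58.5 CPM after fWBI (0.95 ± 0.20, adjusted p = 0.0294). In neither region did the groups overlap. In white matter the levels were 17.7, 35.4, 26.0, 27.7 and 34.4 CPM against 24.9, 27.0, 28.6, 21.2 and 30.6 CPM, with a difference of -0.06 that did not pass the test. NID2, the second nidogen, was at 11.6, 12.4, 17.2, 14.5 and 16.7 CPM in control white matter and at 6.33, 14.2, 9.53, 4.48 and 7.52 CPM after fWBI. The fWBI libraries lay below every control except for animal 2, and the difference of -0.75 did not pass the test (adjusted p = 0.0871).

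Several of these calls rest on few animals. In white matter LAMC1 was lost without control animal 4 or 5 or fWBI animal 2, 4 or 5, and ITGB1 without fWBI animal 5. In hippocampus LAMA2 and NID1 were both lost without control animal 5 or without fWBI animal 2, which left 2 members, FN1 and LAMC1, and NID1 was also lost without control animal 1 or 3 or fWBI animal 1, 3 or 5. In prefrontal cortex ITGA1, ITGB1, LAMA2 and NID1 were all lost without control animal 3, 4 or 5 or without fWBI animal 2, 3 or 5, which left VCAM1 and FN1. Without control animal 2, ITGA1, LAMA2 and NID1 were lost. Without control animal 1 or fWBI animal 4 it was ITGA1 and ITGB1, and without fWBI animal 1 LAMA2.

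**Figure D4:**
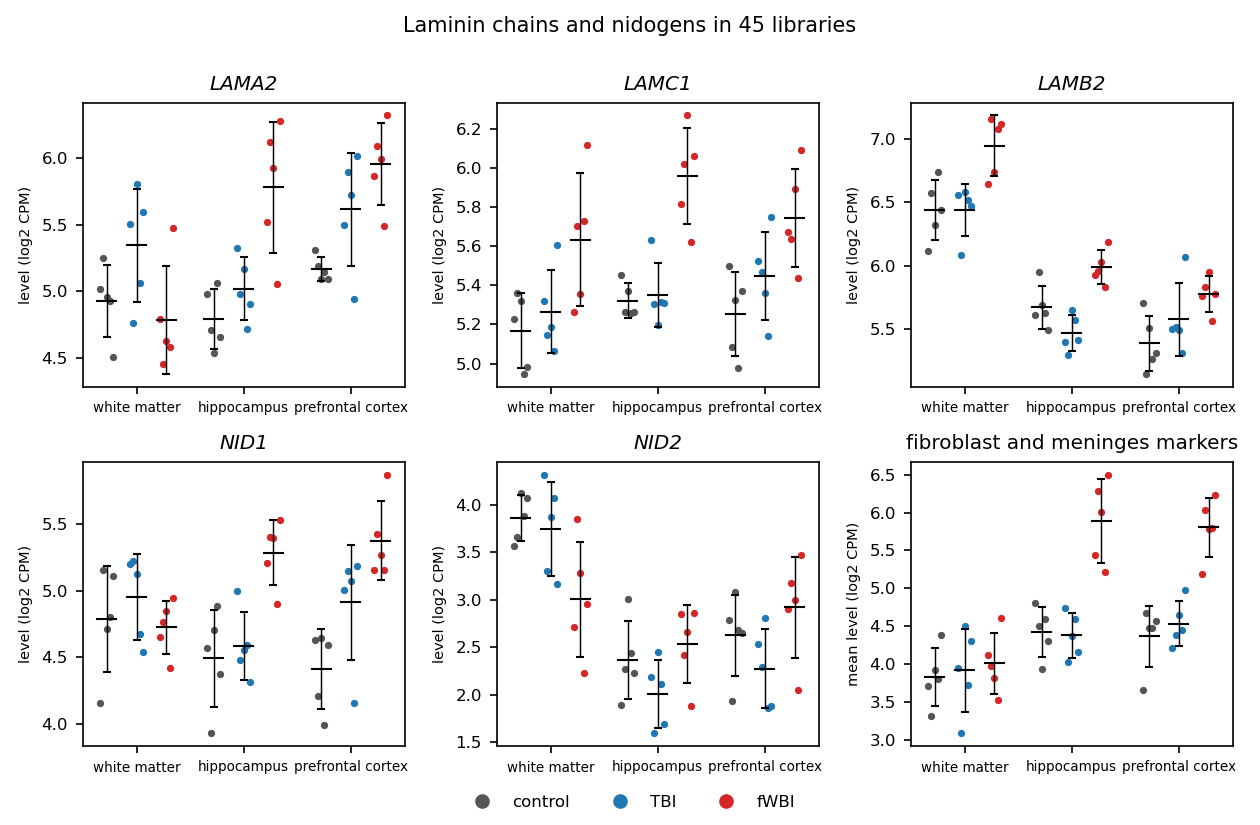
Level in log2 CPM of 3 laminin chains and 2 nidogens, and the mean level of 7 fibroblast and meningeal markers, in each of the 45 libraries by region and treatment (points), with the group mean and SD (bars). LAMA2 and NID1 are higher after fWBI in hippocampus and prefrontal cortex and not in white matter, as are the fibroblast markers.

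Markers of other cells that lay down basement membrane were read beside these genes. The background for their counts after fWBI is again the share of all genes that changed. It was 16.7% for white matter, and for grey matter 1.15% (prefrontal cortex) and 0.723% (hippocampus). Of 7 fibroblast and meningeal markers, 5 rose in prefrontal cortex (median 1.56), 4 rose in hippocampus (median 1.78), while in white matter COL3A1 rose and PDGFRA, which oligodendrocyte precursors also carry, fell. Their mean level was 3.66 to 4.67 in control and 5.19 to 6.23 (log2 CPM) in fWBI prefrontal cortex, 3.93 to 4.80 against 5.21 to 6.5 in hippocampus, and 3.32 to 4.39 against 3.53 to 4.61 in white matter. Their summed level was 150 to 269 CPM against 317 to 616 CPM in prefrontal cortex, 179 to 286 CPM against 311 to 785 CPM in hippocampus, and 173 to 260 CPM against 151 to 298 CPM in white matter. Of 9 endothelial markers, 3 rose and 1 fell in white matter, 1 rose in hippocampus and none in prefrontal cortex. Of the mural cell markers none rose in any region, while ABCC9, ACTA2 and CSPG4 fell in white matter, 3 of 8, and CSPG4, also a precursor marker, in hippocampus. Other marker lists moved as well. The mean level of 7 reactive astrocyte markers, in log2 CPM, was 4.89 in control and 7.9 in fWBI white matter. It was 4.05 and 4.94 in hippocampus, and 2.75 and 4.14 in prefrontal cortex. For 8 oligodendrocyte precursor markers it was 5.63 and 3.5 in white matter and 4.86 and 3.74 in hippocampus. In prefrontal cortex it was 4.31 and 3.09. Whether the share of meninges, vessels or glia in a sample enters these results was not tested.

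The difference of the fWBI effect between regions was tested directly on all libraries with the animal as a block. Between white matter and prefrontal cortex 6 of 41 tested members differed, against 9.96% of all genes. The fWBI effect was higher in white matter for ITGA4 (2.45 ± 0.45, adjusted p = 0.000615), ITGAX (5.93 ± 1.83, adjusted p = 0.0377) and ITGB2 (1.10 ± 0.28, adjusted p = 0.0108). It was lower in white matter for NID2 (-1.08 ± 0.27, adjusted p = 0.00911), LAMA2 (-0.87 ± 0.22, adjusted p = 0.0098) and NID1 (-0.99 ± 0.26, adjusted p = 0.014). Without control white matter libraries 1 and 3, ITGAX and ITGB2 were lost and ICAM1 and ITGA3 were gained. The ITGAX call was also lost without control animal 2, 3 or 5 or fWBI animal 2 or 3, with an adjusted p of up to 0.344 over its alternatives.

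Between white matter and hippocampus 6 of 41 also differed, against 8.96% of all genes. ITGA4 (2.84 ± 0.45, adjusted p = 0.000127), ITGB2 (1.44 ± 0.27, adjusted p = 0.000769) and ICAM1 (1.14 ± 0.37, adjusted p = 0.0474) had the higher effect in white matter. LAMA2 (-1.11 ± 0.22, adjusted p = 0.00148), NID2 (-0.99 ± 0.28, adjusted p = 0.0211) and NID1 (-0.84 ± 0.26, adjusted p = 0.0417) had the lower. Without control libraries 1 and 3 all 6 were called again, ITGA3 was added, and the value for ICAM1 was 2.07. With 1 animal left out, NID1 was lost without control animal 2, 3 or 5 or any 1 fWBI animal, ICAM1 without control animal 2, 4 or 5 or fWBI animal 1, 2, 3 or 4, and NID2 without fWBI animal 1 or 4. Between hippocampus and prefrontal cortex no member and 0% of all genes differed, 0 of the 41 members had an unadjusted p under 0.05, and DESeq2 also called no member. FN1, VCAM1, ITGAL and ITGB7 did not pass any of these 3 tests, and ITGAX did not pass between white matter and hippocampus.

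Other genes of the adhesion pathway were read from 4 lists. To set beside the counts of these lists, 16.7% of all genes tested changed in either direction after fWBI in white matter. For the grey matter regions that share was 1.15% (prefrontal cortex) and 0.723% (hippocampus). Of 23 integrin adaptors and proximal signalling genes, 8 rose and 2 fell in white matter after fWBI. The smallest p-values were those of the blood-cell adaptor parvin gamma, PARVG (3.44 ± 0.34, adjusted p = 7.63e-06), and of the leukocyte kindlin FERMT3 (2.31 ± 0.29, adjusted p = 6.53e-05). The genes that fell were the kindlin FERMT1 (-3.57 ± 0.50) and the talin TLN2 (-0.59 ± 0.19). Of these 23 genes none passed the test in hippocampus, and 1, FERMT1 (-1.53 ± 0.32), fell in prefrontal cortex.

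Of 13 other basement membrane genes, COL4A1, a chain of the main collagen IV network, rose in each region, by 1.35 ± 0.18 in white matter and by 0.92 ± 0.12 and 0.79 ± 0.18 in hippocampus and prefrontal cortex. In white matter HSPG2, which codes for the proteoglycan perlecan, also rose (1.05 ± 0.21), and COL4A3 (-1.70 ± 0.32) and COL4A4 (-1.73 ± 0.33) fell. In prefrontal cortex COL18A1 (1.24 ± 0.19) and COL4A6 (1.26 ± 0.30) also rose. Of 16 other integrin ligands and matricellular genes, 6 rose and 3 fell in white matter, led by the neural tenascin TNR, which fell by 4.61 ± 0.31, and the matrix protein TGFBI (3.07 ± 0.56). In hippocampus periostin, POSTN (2.15 ± 0.39), was the 1 of 16 that passed, and in prefrontal cortex none passed. Of 9 dystroglycan complex genes, which form the other laminin receptor of astrocyte endfeet, SNTB1 (0.69 ± 0.18) and DTNA (0.57 ± 0.16) rose in white matter and none changed in grey matter.

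After TBI no member passed the test in any region. In white matter 0 of 37 were called, against 0.0722% of all genes, and 8 members had an unadjusted p under 0.05. In hippocampus it was 0 of 36, against 0%, with 2 at an unadjusted p under 0.05, and in prefrontal cortex 0 of 37, against 0%, with 10. DESeq2 called ITGB3 and VCAM1 in white matter, no member in hippocampus, and FN1, VCAM1 and ICAM1 in prefrontal cortex. Over the alternatives the whole table gave 0 to 1738 called genes in white matter. In hippocampus it gave 0 to 63 and in prefrontal cortex 0 to 254. In the main edgeR fit the smallest adjusted p of a member in white matter was 0.14. The edgeR fit on all 45 libraries called ITGB3 and ITGB2 there.

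The values behind the nearest of these are as follows. ITGB3, the beta chain of the fibrinogen and vitronectin receptors, was at 0.228, 1.65, 0.810, 0.745 and 0.658 CPM in control white matter and at 3.11, 2.88, 3.55, 1.26 and 2.16 CPM after TBI (1.65 ± 0.43, adjusted p = 0.14). TBI animal 4 lay below the highest control. VCAM1 was at 60.2, 32.7, 34.5, 35.9 and 34.5 CPM in TBI white matter, each above the highest control of 32.0 CPM (0.83 ± 0.25, adjusted p = 0.14). The leukocyte integrins ITGAL (0.95, adjusted p = 0.14) and ITGB2 (0.87, adjusted p = 0.176) were as high or nearly as high there. Without control libraries 1 and 3 their differences were 0.74 and 0.48. The mean level of 10 activated myeloid markers was 2.78 to 4.05 in control and 4.20 to 4.68 (log2 CPM) in TBI white matter. FN1 in prefrontal cortex was at 195.0, 206.9, 257.5, 115.9 and 308.6 CPM after TBI (0.87 ± 0.22, adjusted p = 0.128), with animal 4 inside the control range. ICAM1 in prefrontal cortex was at 57.9, 59.5, 53.5, 56.1 and 48.7 CPM after TBI, with 3 of 5 below every control (-0.48 ± 0.12, adjusted p = 0.13). Over all tested members the TBI differences ran from -1.01 to 1.65 in white matter, from -0.48 to 0.74 in hippocampus and from -0.57 to 0.87 in prefrontal cortex.

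Set directly against TBI, fWBI white matter differed in 8 of 37 members, against 7.33% of all genes. ITGA4 (3.11 ± 0.48, adjusted p = 0.000755), ITGAX (5.77 ± 0.90, adjusted p = 0.00087), FN1 (0.98 ± 0.22, adjusted p = 0.0126), ITGAL (1.18 ± 0.28, adjusted p = 0.0153), LAMB2, ITGA6 and ITGA7 were higher after fWBI. ITGB3 was lower, at 1.21, 0.899, 1.30, 0.996 and 0.346 CPM after fWBI against the TBI levels above (-1.42 ± 0.42, adjusted p = 0.0497). Only animal 4 of the TBI group lay within the range of the fWBI libraries. The calls of ITGA4, ITGAX, FN1 and ITGAL held under every alternative run, while ITGA6, ITGA7, ITGB3 and LAMB2 were all lost without fWBI animal 2 or 5 or without TBI animal 2 or 5. ITGA6 and LAMB2 were also lost without fWBI animal 4, ITGA6 without TBI animal 1 or 4, and ITGA7 without TBI animal 1, 3 or 4. ITGB3 passed only without TBI animal 4 when 1 animal was left out.

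In hippocampus LAMC1 (0.65 ± 0.11, adjusted p = 0.0169), LAMB2 (0.55 ± 0.10, adjusted p = 0.0215) and FN1 (0.88 ± 0.17, adjusted p = 0.025) were higher after fWBI than after TBI, 3 of 36 members against 0.339% of all genes. All 3 were lost without TBI animal 2. A single member remained without TBI animal 5 or without fWBI animal 2, 3 or 5. In prefrontal cortex no member of 37 passed the test, against 0.29% of all genes. There 7 members had an unadjusted p under 0.05, and DESeq2 called VCAM1 (0.74 ± 0.19 in edgeR, adjusted p = 0.218).

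The regions of the control animals differed widely over the whole table, and the members differed about as often as all genes did. With animal as a block, 24 of 37 tested members differed between white matter and prefrontal cortex, 14 higher and 10 lower in white matter, against 60.9% of all genes. Higher in white matter were ITGA2 (3.66 ± 0.34, adjusted p = 1.21e-05), an alpha chain of collagen and laminin receptors, ITGB2 (2.62 ± 0.23, adjusted p = 8.41e-06), and ITGB8 (2.26 ± 0.19, adjusted p = 7.82e-06), the partner of ITGAV that activates latent TGF-beta. ITGAV itself (1.73 ± 0.18), ITGB1 (1.69 ± 0.15), ITGB5 (1.41 ± 0.15), ITGB4 (2.04 ± 0.29) and NID2 (1.22 ± 0.18) were higher as well. Lower in white matter were ICAM1 (-2.41 ± 0.38, adjusted p = 0.000345), ITGA4 (-2.06 ± 0.42, adjusted p = 0.00146), the laminin chain LAMB1 (-1.94 ± 0.19, adjusted p = 1.42e-05) and ITGA3 (-1.79 ± 0.29), an alpha chain of laminin receptors. Without control libraries 1 and 3 the values were -3.35 for ICAM1 and -2.65 for ITGA4. LAMA3, NID1 and THBS4 were then also called, and ITGA2B was lost.

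White matter and hippocampus differed in 21 of 37 members, 15 higher and 6 lower in white matter, against 55.9% of all genes. ITGA2 (3.05 ± 0.33), ITGB1 (1.45 ± 0.15) and ITGB8 (1.56 ± 0.19) were again higher in white matter, and ICAM1 (-3.23 ± 0.40) and ITGA4 (-2.61 ± 0.42) lower. Without control libraries 1 and 3 the values were -4.12 for ICAM1 and -3.16 for ITGA4, and LAMC3, NID1 and THBS4 were also called. Hippocampus and prefrontal cortex differed in 5 of 37, against 15% of all genes. ITGA9, an alpha chain that binds tenascin and VCAM1, was lower in hippocampus (-1.26 ± 0.13, adjusted p = 0.000132), as was LAMB1 (-0.69 ± 0.18, adjusted p = 0.0258). ITGB5 (0.69 ± 0.15), ITGB2 (0.94 ± 0.23) and ITGB8 (0.71 ± 0.19) were higher there. The count was 2 without control animal 3, 3 without animal 2 or 5, and 8 without animal 1.

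**Figure D5:**
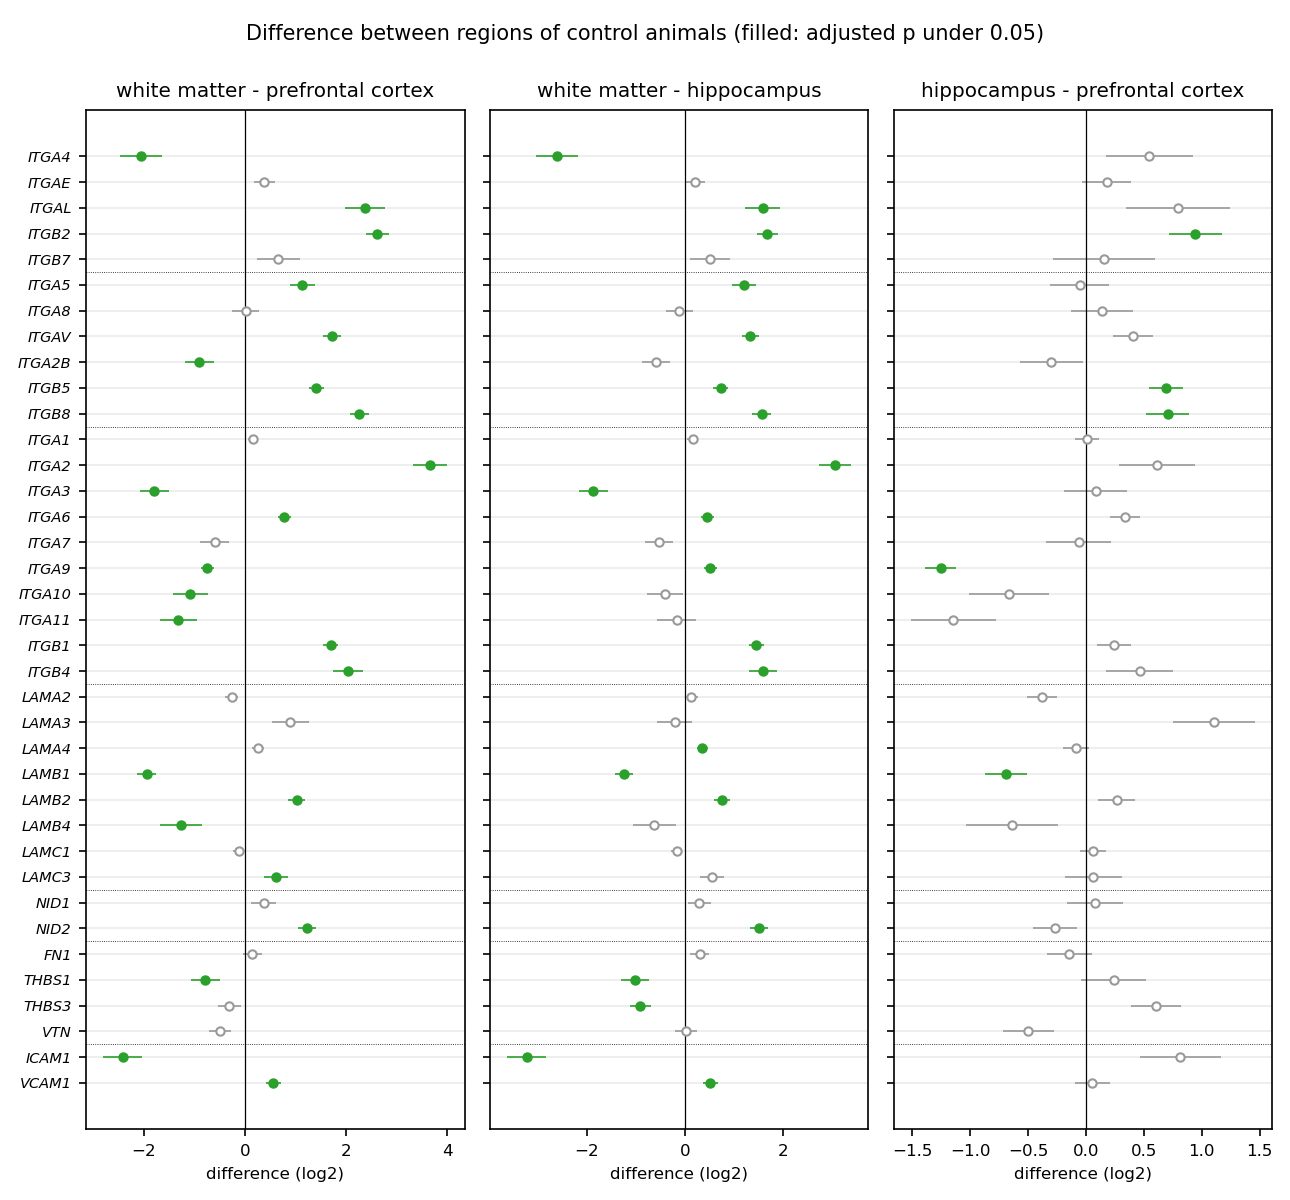
Log2 difference between regions of the 5 control animals (point) with its SE (bar) for the tested members, with filled points for adjusted p under 0.05 and dotted lines between roles; the horizontal scales differ between panels. Both panels with white matter show ITGA2, ITGB1 and ITGB8 to the right of 0 and ICAM1 and ITGA4 to the left, and filled points are fewest between the 2 grey matter regions.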

How the data were processed

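The deposited file is a gene by library table of unscaled read counts, 45 columns, from RNA prepared per the labels' protocols with a stranded total RNA kit after ribosomal RNA removal. FastQC, STAR, featureCounts and DESeq2 were used by the authors, per the submitters' processing notes, which give no versions. No source used here gives the genome build, annotation or strand setting, so overlapping or antisense genes may share reads and no coordinates or sequences are printed. Columns were matched to samples by label. Symbols came from a table of Ensembl names; members were the symbols given in the report, and further family members without a match are not analysed here. A member's values that are not reported here stay in the counts of members and are left out of the plots.

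Each irradiation comparison was fitted on the 15 libraries of a region with TMM scaling, edgeR's default filter by group and its robust quasi-likelihood test (edgeR 4.0.16, limma 3.58.1, R 4.3.3). Control regions and differences of effect between regions used the animal as a block, as the labels give it: libraries of 1 animal deviated together (median r = 0.314 over 45 pairs across genes, 41 above 0.1). P-values are two-sided and adjusted by Benjamini-Hochberg over all genes, threshold 0.05. Log2 CPM used a prior count of 2. The steps were tested on simulated data. The alternatives were DESeq2 (1.42.0) as test or scaling, other filters on low counts, other sets of libraries, a block on the animal number, and fits without each animal or without 2 control white matter libraries.

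The members, lists and marker genes were chosen with earlier results of these data known. Values in every library are given for members past the threshold in fWBI against control in 2 or 3 regions, the 4 largest changes per fWBI comparison and the 3 smallest p-values per test between regions; of other lists the 2 smallest p-values are named. ICAM1, ITGB3, further region differences and further list genes were added after their values were seen.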

Additional observations from a re-analysis of the deposited data

Results flagged for a closer look

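In 7 of 108 combinations of a member and a group, 1 library stood apart from the other 4, where chance gives about 1 in 20; 12 members were examined in 9 groups. VCAM1 was at 60.15 CPM in TBI white matter animal 1 and at 32.66 to 35.9 in the others. ITGB1 was at 116.8 CPM in fWBI hippocampus animal 5 (others 86.97 to 94.68). LAMC1 was at 49.36 CPM in TBI hippocampus animal 1 (others 36.45 to 39.66). NID1 was at 17.6 CPM in TBI prefrontal cortex animal 4, below 31.98 to 36.18 in the others. ITGAL was at 3.412 CPM in control white matter animal 2 (others 1.366 to 1.644) and at 0.7164 CPM in control prefrontal cortex animal 1 (others 0.1945 to 0.2955). ITGAX in TBI prefrontal cortex animal 5 was at 0.09349 CPM, a single read, with 0 in the others.

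The fWBI effect differed between regions in 12 tests with the animal as a block. White matter minus prefrontal cortex was 2.45 for ITGA4, 5.93 for ITGAX, 1.10 for ITGB2, -1.08 for NID2, -0.87 for LAMA2 and -0.99 for NID1. White matter minus hippocampus was 2.84 for ITGA4, 1.44 for ITGB2, 1.14 for ICAM1, -1.11 for LAMA2, -0.99 for NID2 and -0.84 for NID1.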

How the results depend on the processing

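Of 1728 values of 120 gene results under the alternatives, 1519 kept their direction and their side of the threshold, 187 fell below it, 18 came past it and 4 reversed. The reversed values are differences near 0 in white matter after fWBI: when 1 animal was left out LAMA2 ran from -0.30 to 0.00295, positive without control animal 2, and NID1 from -0.18 to 0.04, with 0.0408, 0.0132 and 0.00851 as its positive values. Under DESeq2 the members called were 2 for TBI against control in white matter and 3 in prefrontal cortex, and 13, 6 and 1 for fWBI against TBI in white matter, hippocampus and prefrontal cortex. With all 45 libraries in 1 fit, TBI against control called 2 and fWBI against TBI 13 in white matter. The genes called over the whole table moved as well, and the shares given above belong to the main fits only. For TBI against control they ran from 0 to 1738 in white matter and 0 to 254 in prefrontal cortex. For fWBI against TBI they ran from 743 to 1837 in white matter, 31 to 135 in hippocampus and 21 to 93 in prefrontal cortex. With only the 2 groups compared, fWBI against control called 2 in hippocampus and fWBI against TBI 1 in prefrontal cortex. A mean of at least 50 counts left 3 for fWBI against control in prefrontal cortex. With the animal number as a replicate block, which pairs animals that share only a number (median r = 0.015 over 45 pairs), the members called were 5 for fWBI against TBI in white matter, 2 for fWBI against control and 1 for fWBI against TBI in hippocampus, and 1 for TBI against control in prefrontal cortex. Leaving out 1 animal at a time gave 4 to 9 members for fWBI against TBI in white matter, 2 to 5 and 0 to 4 in hippocampus for fWBI against control and against TBI, 2 to 5 for fWBI against control in prefrontal cortex, 2 to 8 between control hippocampus and prefrontal cortex, and 3 to 7 for the fWBI effect in white matter minus hippocampus. The genes called over the whole table for fWBI against control in white matter were 1639 with only the 2 groups compared, 1674 without control libraries 1 and 3 and 4062 with all 45 libraries. With 5 animals a group, small changes of sparsely counted members such as ITGB3 and ITGAX in grey matter were not detectable at this depth.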
